A study of Homo sapiens with 20 samples.

Results

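U2932 cells treated with the compound TK for 8 h were compared with U2932 cells kept in DMSO for the same time. U2932 is an established line of diffuse large B cell lymphoma, a tumour of mature B cells, and it has been described as holding subclones. The comparison rests on 5 of the 20 RNA-seq libraries of the study, 2 labelled TK (replicates 1 and 2) and 3 labelled DMSO (replicates 1 to 3), chosen by cell line, treatment and time in their labels. The other libraries came from U2932 at 18 h (1 with DMSO, 3 with TK) and from a second lymphoma line, DOHH2, treated in the same way at both times. TK is a code name, and neither its structure nor its dose is given in the sources used here. Nothing in the labels says that the replicates came from separate cultures, so the p-values measure the spread between libraries, which may be technical.

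Dividing B lymphoma cells make many of the transcripts for mitosis late in the cell cycle. Cyclin B and its kinase drive entry into mitosis, Aurora and Polo-like kinases build the spindle from tubulin, and the spindle checkpoint holds back the anaphase-promoting complex, the ubiquitin ligase that ends mitosis, until each chromosome is attached. Bulk RNA cannot tell a larger fraction of cells in mitosis from more of a transcript in each cell. The level of a gene is its CPM, the count as a share of the library's counts after TMM scaling. Differences are TK minus DMSO on the log2 scale, and tests are by edgeR's quasi-likelihood method with Benjamini-Hochberg adjustment over all 16478 genes tested.

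Among the pathway lists examined, the list of mitotic entry had the highest median difference between TK and DMSO, so the promoters of 3 mitosis genes are shown with motifs that such genes share. They are RefSeq promoters of GRCh38.p14, 250 bases before the RefSeq start, 5′ to 3′, all on the plus strand. The gene starts of GENCODE v29 differ and lie inside these windows. Capitals mark the CCAAT box (CCAAT, or ATTGG on the other strand) and the cell cycle homology region (TTTGAA, or TTCAAA), motifs known from promoters of late cell cycle genes. The windows are chr5:69166900-69167149 for CCNB1 (cyclin B1), chr1:43358731-43358980 for CDC20 (an activator of the anaphase-promoting complex) and chr1:37692266-37692515 for CDCA8 (borealin, of the chromosomal passenger complex).
CCNB1: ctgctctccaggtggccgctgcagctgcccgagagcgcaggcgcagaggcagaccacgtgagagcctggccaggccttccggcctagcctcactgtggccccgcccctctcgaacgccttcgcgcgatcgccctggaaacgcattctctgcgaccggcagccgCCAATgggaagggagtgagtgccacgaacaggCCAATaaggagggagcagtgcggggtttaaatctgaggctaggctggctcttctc
CDC20: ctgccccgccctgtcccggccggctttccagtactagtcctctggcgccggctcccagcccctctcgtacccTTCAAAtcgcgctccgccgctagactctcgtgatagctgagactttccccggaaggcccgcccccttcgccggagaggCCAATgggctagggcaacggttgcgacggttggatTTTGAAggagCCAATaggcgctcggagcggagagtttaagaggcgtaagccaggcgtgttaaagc
CDCA8: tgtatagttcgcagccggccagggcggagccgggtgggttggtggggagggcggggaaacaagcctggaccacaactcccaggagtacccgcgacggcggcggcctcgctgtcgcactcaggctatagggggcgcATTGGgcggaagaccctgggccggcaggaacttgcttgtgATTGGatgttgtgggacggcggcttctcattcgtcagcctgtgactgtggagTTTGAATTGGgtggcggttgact
The CCNB1 window holds CCAAT at 87 and 55 bases before the start and no TTTGAA. The CDC20 window holds CCAAT at 100 and 55 bases and TTTGAA at 178 (reverse strand) and 65 bases before the start. In CDCA8 the TTTGAA at 23 bases before the start overlaps the reverse CCAAT at 18 bases, and 2 more lie upstream. In windows of 300 bases that include 50 after the start, 47 of the 94 mitosis genes with a RefSeq promoter (50%) held TTTGAA on either strand, against 9.94% of the 10641 tested genes with one. CCAAT on either strand was in 66.0% of the mitosis promoters against 36.6%, and both motifs were in 35.1% against 4.11%. These are matches of letters, and the lists were drawn up for their role in mitosis, in which such promoters are known to be common.

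The 5 libraries held 31940617 to 39801410 counts in genes. B cell markers were present in all 5, with CD79A at 362 to 437 CPM, MS4A1 at 879 to 1507, PAX5 at 290.1 to 346 and IRF4 at 326 to 420.1. Summed markers of T and NK cells stayed at 1.07 to 1.21 CPM (3 of the 11 found were at 0 in all 5 libraries), those of myeloid cells at 1.55 to 2.27 CPM (1 of 10 at 0), and those of fibroblasts and epithelium at 24.5 to 34.5 CPM, nearly all of it EPCAM (22.5 to 32.2 CPM). TK replicate 1 lay farther from the DMSO libraries than TK replicate 2 did. Its root mean square log2 distance to the DMSO libraries was 0.28 to 0.33 over 10166 genes and that to TK replicate 2 was 0.30. TK replicate 2 lay 0.15 to 0.22 from the DMSO libraries, which lay 0.19 to 0.31 from each other. The nearest U2932 library to TK replicate 1 was TK 18 h replicate 3, at a distance of 0.25. DMSO replicate 1 was also far from its own group. Its log2 differences from the mean of the other 2 DMSO libraries had an SD of 0.27 over 9862 genes. From the mean of all 3 DMSO libraries the SD was 0.28 for TK replicate 1 and 0.14 for TK replicate 2. These SDs are not strictly alike, because a mean of 2 libraries is noisier than a mean of 3.

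A pair of pseudogenes separated TK replicate 1 from the other 4 libraries. PPIAP22, a copy of the cyclophilin A gene, had 11.6, 8.76 and 8.19 CPM in DMSO replicates 1 to 3, 7.95 CPM in TK replicate 2 and 62.7 CPM in TK replicate 1. MTND2P28, a nuclear copy of a mitochondrial gene, had 95.7, 64.7 and 82.8 CPM in DMSO, 74.5 CPM in TK replicate 2 and 3.43 CPM in TK replicate 1. Their ratio split the 20 libraries into a low and a high set, with 1 library between, across lines and treatments. The high set held every DMSO library of 18 h, TK replicate 3 of 18 h in both lines, and TK replicate 1 of U2932 at 8 h. This TK replicate 1 was the only 8 h library in the high set. Among the 8 h libraries of U2932 only TK replicate 1 was in the high set, so within the low set the comparison is TK replicate 2 against DMSO, and what the ratio stands for was not tested.

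**Figure D1:**
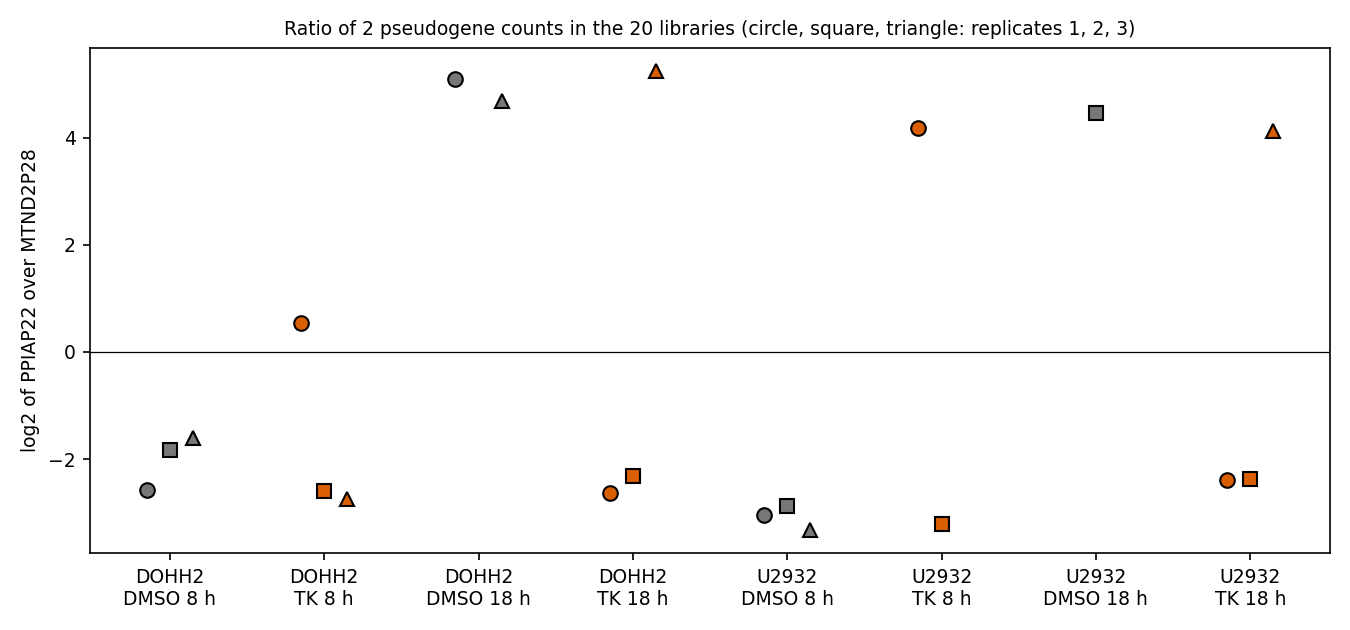
The log2 ratio of PPIAP22 to MTND2P28 (y axis) is plotted for each of the 20 libraries, grouped by line, treatment and time (x axis), with DMSO in grey and TK in orange. TK 8 h replicate 1 of U2932 sits near 4.2, among the libraries with a high ratio, and the other 4 libraries of the comparison sit below -2.

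No gene passed the adjusted threshold of 0.05 in TK against DMSO at 8 h (0 of 16478 genes, 0%, edgeR's quasi-likelihood test). An unadjusted p under 0.05 was reached by 276 genes (1.67%), 137 with higher values in TK (0.831%) and 139 with lower values (0.844%). DESeq2 and limma voom with quality weights also called 0 genes, with 283 and 920 at an unadjusted p under 0.05. Without the filter on low counts edgeR called 9 of 34160 genes (0.0263%), among them PPIAP22, MTND2P28 and CDC20. Both TK libraries lay above all 3 DMSO libraries for 1109 genes (6.73%) and below them for 1193 (7.24%). TK replicate 1 alone lay above all DMSO libraries for 4888 genes (29.7%) and below for 4679 (28.4%), while TK replicate 2 did so for 2962 (18%) and 3058 (18.6%). Without TK replicate 1 the count at an unadjusted p under 0.05 was 117, and without TK replicate 2 it was 932.

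Genes of mitosis, taken as 4 lists of mitotic entry, spindle checkpoint and anaphase, kinesins, and centromere and kinetochore, had higher values in TK for 90 of 111 members, against 49.7% of all genes tested. The median difference was 0.23 against 0 over all genes, and the members ranged from -1.04 to 0.67. None passed the test. By edgeR's quasi-likelihood test 12 had an unadjusted p under 0.05 with a higher value (0.831% of all genes) and 0 with a lower value (0.844% of all genes). Both TK libraries lay above all DMSO libraries for 6 of the 111 members (AURKA, UBE2S, CCNB1, CENPT, CKS2 and ANAPC5), against 6.73% of all genes, and below for 2 (ANAPC4 and MIS12), against 7.24%. The libraries did not act alike: the median over the lists, relative to the DMSO mean, was 0.39 in TK replicate 1 and 0.03 in TK replicate 2. DMSO replicates 1 to 3, which are part of that mean while the TK libraries are not, stood at 0.26, -0.19 and -0.06. TK replicate 2 thus lay inside the DMSO range and TK replicate 1 above it. TK replicate 1 exceeded all DMSO libraries for 69 of 111 members and was below all for 7, against 9 and 9 for TK replicate 2. Over all genes these shares were 29.7% and 28.4% for TK replicate 1 and 18% and 18.6% for TK replicate 2. Without TK replicate 1 the median difference was 0.0096, it was 0.38 without DMSO replicate 1 and 0.12 without DMSO replicate 2.

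**Figure D2:**
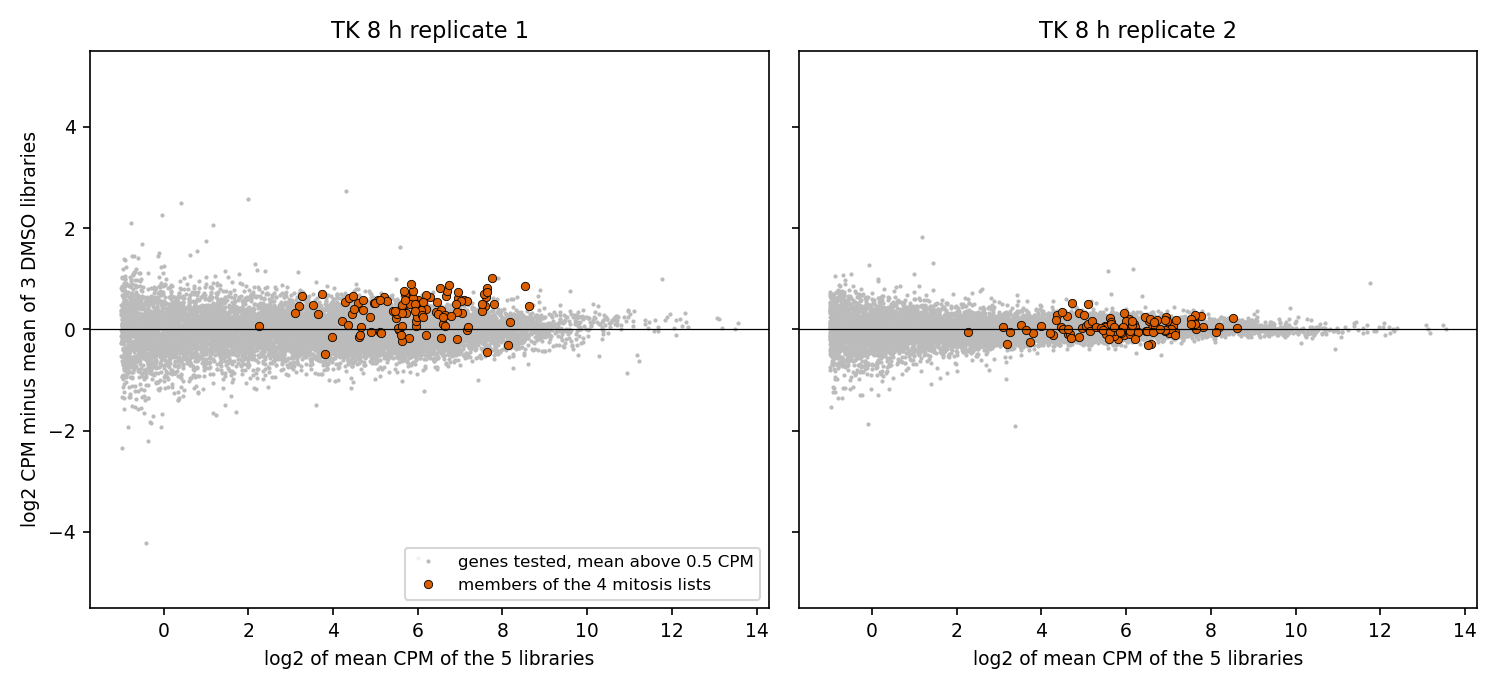
Each point is a gene, with the log2 of its mean CPM over the 5 libraries on the x axis and its log2 CPM minus the mean of the 3 DMSO libraries on the y axis, for TK replicate 1 (left) and replicate 2 (right). Members of the 4 mitosis lists (orange) lie mostly above 0 in replicate 1, with a median of 0.39, and around 0 in replicate 2, with a median of 0.03.

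For mitotic entry, CCNB1, the cyclin that activates the mitotic kinase, had 194, 144 and 160 CPM in DMSO replicates 1 to 3 and 291 and 201.5 CPM in TK replicates 1 and 2. Both TK libraries were above all DMSO libraries, TK replicate 2 by a small margin. The group levels were 246 ± 63.5 CPM (SD, n = 2) in TK and 166 ± 25.2 CPM (SD, n = 3) in DMSO. The difference was 0.57 with an SE of 0.16, an unadjusted p of 0.00227 and an adjusted p of 1 by edgeR's quasi-likelihood test, and it was 0.28 without TK replicate 1. In GENCODE v29 CCNB1 lies at chromosome 5, 69167010 to 69178245 (GRCh38), a start inside the promoter window shown above. AURKA, a kinase of the centrosome and spindle, had 123, 96.0 and 105 CPM in DMSO and 166 and 128 CPM in TK, again without overlap and with TK replicate 2 close to DMSO replicate 1. Its difference was 0.44 with an SE of 0.17, and 0.24 without TK replicate 1.

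Several partners of these genes overlapped between the groups. CDCA8 had 128, 93.8 and 102 CPM in DMSO and 178 and 119 CPM in TK, a difference of 0.46 (SE 0.15). The cyclin CCNB2 had 115, 71.6 and 82.7 CPM in DMSO and 162 and 100.2 CPM in TK, a difference of 0.55 (SE 0.20). PLK1, the Polo-like kinase, had 206, 144 and 173 CPM in DMSO and 286.5 and 185 CPM in TK, a difference of 0.44 (SE 0.19). In all 3 genes TK replicate 1 was the highest of the 5 libraries and TK replicate 2 was below DMSO replicate 1. Without TK replicate 1 the differences were 0.14 for CDCA8, 0.16 for CCNB2 and 0.09 for PLK1. CDK1, the kinase that cyclin B1 activates, was looked at after its values were seen. It had 124, 82.2 and 85.1 CPM in DMSO and 112 and 77.5 CPM in TK, a difference of -0.03 (SE 0.27), so that the highest and the lowest library were DMSO replicate 1 and TK replicate 2.

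Among genes of the checkpoint and anaphase, CDC20 had 214, 140.0 and 171 CPM in DMSO and 349 and 208 CPM in TK. The highest DMSO library exceeded TK replicate 2, so the groups overlapped. Its difference was 0.67 with an SE of 0.22 and an unadjusted p of 0.00558 (adjusted p of 1, edgeR's quasi-likelihood test). Over its alternatives it ranged from 0.25 without TK replicate 1 to 0.99 without TK replicate 2, and without the filter on low counts it passed with an adjusted p of 0.0315, against 0.768 to 1 in the other alternatives. UBE2S, the enzyme that lengthens ubiquitin chains on substrates of the anaphase-promoting complex, had 308, 269.8 and 353 CPM in DMSO and 555 and 357 CPM in TK. TK replicate 2 exceeded the highest DMSO library by less than the DMSO libraries differed among themselves, and the difference of 0.56 (SE 0.20) was 0.21 without TK replicate 1. UBE2C, which starts those chains and was also looked at after its values were seen, had 99.1, 68.0 and 80.8 CPM in DMSO and 143.5 and 66.1 CPM in TK. Here TK replicate 1 was the highest library and TK replicate 2 the lowest.

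**Figure D3:**
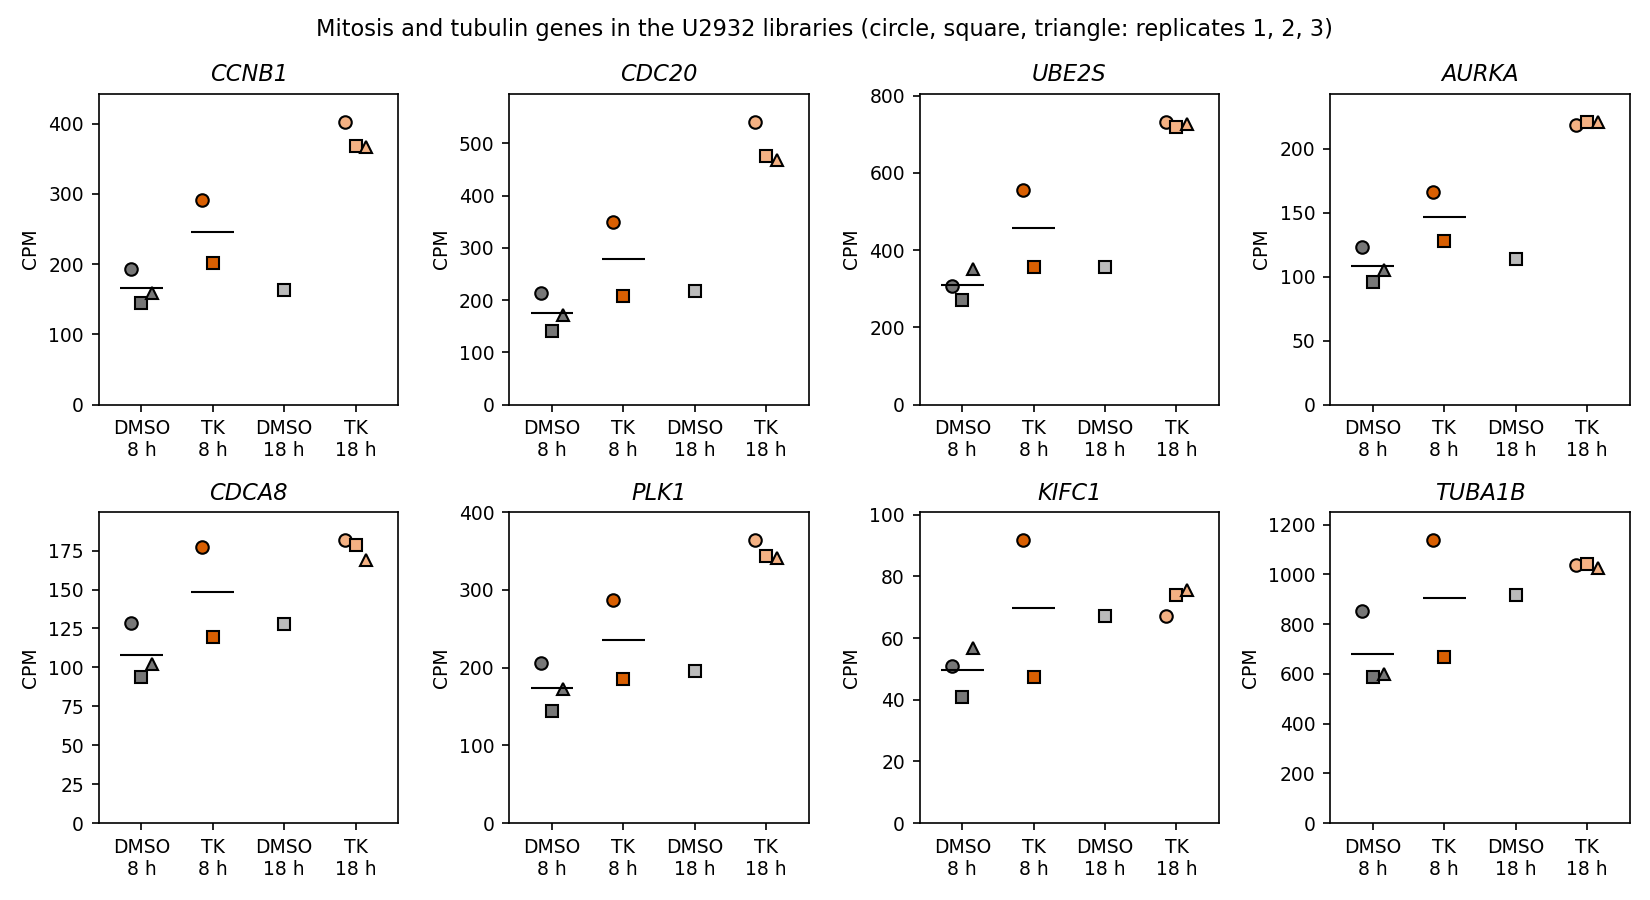
CPM (y axes, from 0) of 8 genes of mitosis and tubulin in the 9 U2932 libraries, with DMSO in grey, TK in orange, paler colours at 18 h, and lines at the 8 h means. In all 8 panels TK 8 h replicate 1 lies above every DMSO library, while TK 8 h replicate 2 lies near or within the DMSO range at 8 h.

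Values of a few motor and centromere genes were as follows. KIFC1, a minus-end directed kinesin of the spindle, had 51.0, 40.9 and 56.9 CPM in DMSO and 91.7 and 47.5 CPM in TK, a difference of 0.49 (SE 0.20) that was -0.06 without TK replicate 1. KIF2C, a kinesin that shortens microtubules at centromeres, had 110.2, 77.7 and 83.4 CPM in DMSO and 151 and 93.6 CPM in TK, a difference of 0.44 (SE 0.19) that was 0.05 without TK replicate 1. CENPA, the histone variant of centromeres, had 40.9, 27.2 and 29.7 CPM in DMSO and 50.3 and 35.9 CPM in TK, a difference of 0.40 (SE 0.19) that was 0.14 without TK replicate 1. In these 3 genes TK replicate 1 was the highest library and TK replicate 2 lay among the DMSO libraries.

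The tubulin genes, the subunits of microtubules, had higher values in TK for 15 of 17 members tested, with a median difference of 0.20 and none called. The median was 0.37 in TK replicate 1, above all DMSO libraries for 12 of 17 members (29.7% of all genes), and 0.01 in TK replicate 2, for 0 of 17 (18% of all genes). TUBA1B had 854.5, 587 and 598 CPM in DMSO and 1137 and 669 CPM in TK, a difference of 0.41 (SE 0.19) that was -0.02 without TK replicate 1. TUBB4B had 453, 369 and 422 CPM in DMSO and 648 and 413 CPM in TK, a difference of 0.36 (SE 0.19). For both genes TK replicate 2 lay between DMSO libraries. The DMSO library at 18 h, which is in the high set of the pseudogene ratio, also had high tubulin values. Its list median was 0.44 relative to DMSO at 8 h, with 917 CPM of TUBA1B. TK replicates 1 and 2 at 18 h, in the low set, had list medians of 0.51 and 0.49 and 1036 and 1042 CPM of TUBA1B. TK replicate 3 at 18 h, in the high set, had 0.48 and 1024 CPM. Tubulin cofactors and microtubule regulators had a median difference of 0.03, with 18 of 28 members higher.

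With the log2 pseudogene ratio as a covariate in the fit, an alternative added after the data were seen, the median difference was 0.13 for the mitosis genes and 0.17 for the tubulins. CCNB1 then had a difference of 0.43, CDC20 of 0.54, CDCA8 of 0.42 and UBE2S of 0.44, and no gene was called (174 at an unadjusted p under 0.05). The ratio and TK replicate 1 cannot be told apart within the 8 h libraries of U2932.

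Genes of the DNA replication phase and of G1 had values on both sides of 0. The DNA replication list had a median difference of 0.03, with 23 of 38 members higher and 0 called. TK replicate 1 had a median of 0.11 and TK replicate 2 of -0.06. G1 and S phase cyclins and E2F genes had a median of -0.10, with 6 of 18 members higher, and medians of -0.24 and 0.01 in TK replicates 1 and 2. MCM4, a subunit of the replicative helicase, had 604.5, 685 and 656 CPM in DMSO and 519 and 621 CPM in TK, a difference of -0.19 (SE 0.13), with TK replicate 2 inside the DMSO range.

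Targets of p53, the transcription factor that responds to DNA damage, had higher values for 13 and lower values for 17 of 30 members (49.6% of all genes were lower), with a median of -0.02. MDM2, the ligase that degrades p53 and is itself a target, had 99.0, 94.7 and 96.1 CPM in DMSO and 65.9 and 91.4 CPM in TK. Both TK libraries were below the narrow DMSO range, TK replicate 2 by little, and the difference was -0.30 (SE 0.14, unadjusted p of 0.0519). PMAIP1, a target that promotes cell death, had 991, 984 and 902 CPM in DMSO and 672 and 889 CPM in TK, a difference of -0.30 (SE 0.15). Without TK replicate 1 the differences were -0.08 for MDM2 and -0.11 for PMAIP1. The BCL2 family had 12 of 18 members lower, with a median of -0.07. In it MCL1, which protects from cell death, had 2401, 2807 and 2554 CPM in DMSO and 1683 and 2569 CPM in TK, low in TK replicate 1 only. Caspase and IAP genes had 12 of 16 members lower, with a median of -0.07, and none of these lists had a called gene.

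Genes of B cell identity and signalling had small median differences. B cell identity factors had a median of -0.02 (9 of 19 higher), with the TK libraries on opposite sides of the DMSO range. Each DMSO library is set against a mean that it is part of, which draws its value toward 0. TK replicate 1 stood at -0.11 and TK replicate 2 at 0.05, DMSO at 0.01 to 0.02, and the median difference was 0.05 without TK replicate 1 and -0.11 without TK replicate 2. Germinal centre markers had a median of 0.0064 (8 of 15), activated B cell markers of -0.03 (7 of 16) and plasma cell genes of 0.0015 (8 of 15). B cell receptor signalling had a median of 0.04, with 12 of 20 members higher. TK replicate 2 stood at 0.11, above the DMSO libraries (-0.06 to 0.06), and exceeded all of them for 10 of 20 members (18% of all genes), while TK replicate 1 stood at 0.04 and did so for 6 (29.7% of all genes). BTK, the kinase below the receptor, had 87.9, 83.6 and 74.0 CPM in DMSO and 91.9 and 88.6 CPM in TK, a difference of 0.14 (SE 0.12) without overlap. That value was -0.0137 when the DMSO library of 18 h joined the controls. NF-kB subunits, inhibitors and effectors had a median of 0.02 (15 of 29 higher), and immediate early genes of -0.11 (10 of 27 higher).

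In metabolism, nuclear genes of oxidative phosphorylation had positive differences for 20 of 20 members, with a small median of 0.07, none called and none with both TK libraries above DMSO. TK replicate 1 had a median of 0.25 and lay above all DMSO libraries for 19 of 20 members (29.7% of all genes), while TK replicate 2 had a median of -0.08 and lay below them for 7 (18.6% of all genes). UQCRC2, a core subunit of complex III, had 94.1, 111 and 92.6 CPM in DMSO and 139 and 104 CPM in TK, a difference of 0.29 (SE 0.14) that was 0.07 without TK replicate 1. Genes of the mitochondrial genome had a median of 0.02 (8 of 15 higher). Cholesterol synthesis and uptake genes had a median of 0.06 (17 of 23), with medians of 0.04 and 0.07 in TK replicates 1 and 2. Glycolysis and hypoxia genes had a median of 0.07 (20 of 27) and ribosome assembly and MYC target genes of 0.07 (18 of 25). Cytosolic chaperones had a median of 0.05 (18 of 20), with 0.10 in TK replicate 1 and -0.01 in TK replicate 2.

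Stress and interferon lists stayed near 0, with a median of 0.0011 for ATF4 stress and endoplasmic reticulum folding genes (12 of 23 higher), -0.01 for NRF2 genes (6 of 14) and -0.0043 for interferon-stimulated genes (12 of 25). DNAJB9, a chaperone of the endoplasmic reticulum, had 16.5, 14.5 and 14.8 CPM in DMSO and 8.30 and 11.5 CPM in TK. Both TK libraries were lower than all DMSO libraries, with a difference of -0.63 (SE 0.24, unadjusted p of 0.0183, adjusted p of 1 by edgeR's quasi-likelihood test). IRF7, a regulator of interferon genes, had 3.44, 3.20 and 4.40 CPM in DMSO and 6.51 and 4.45 CPM in TK, a difference of 0.57 (SE 0.27). MALAT1, a nuclear long RNA, had 175, 155 and 172.5 CPM in DMSO and 297 and 165.5 CPM in TK, a difference of 0.47 (SE 0.22) that was -0.0182 without TK replicate 1.

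**Figure D4:**
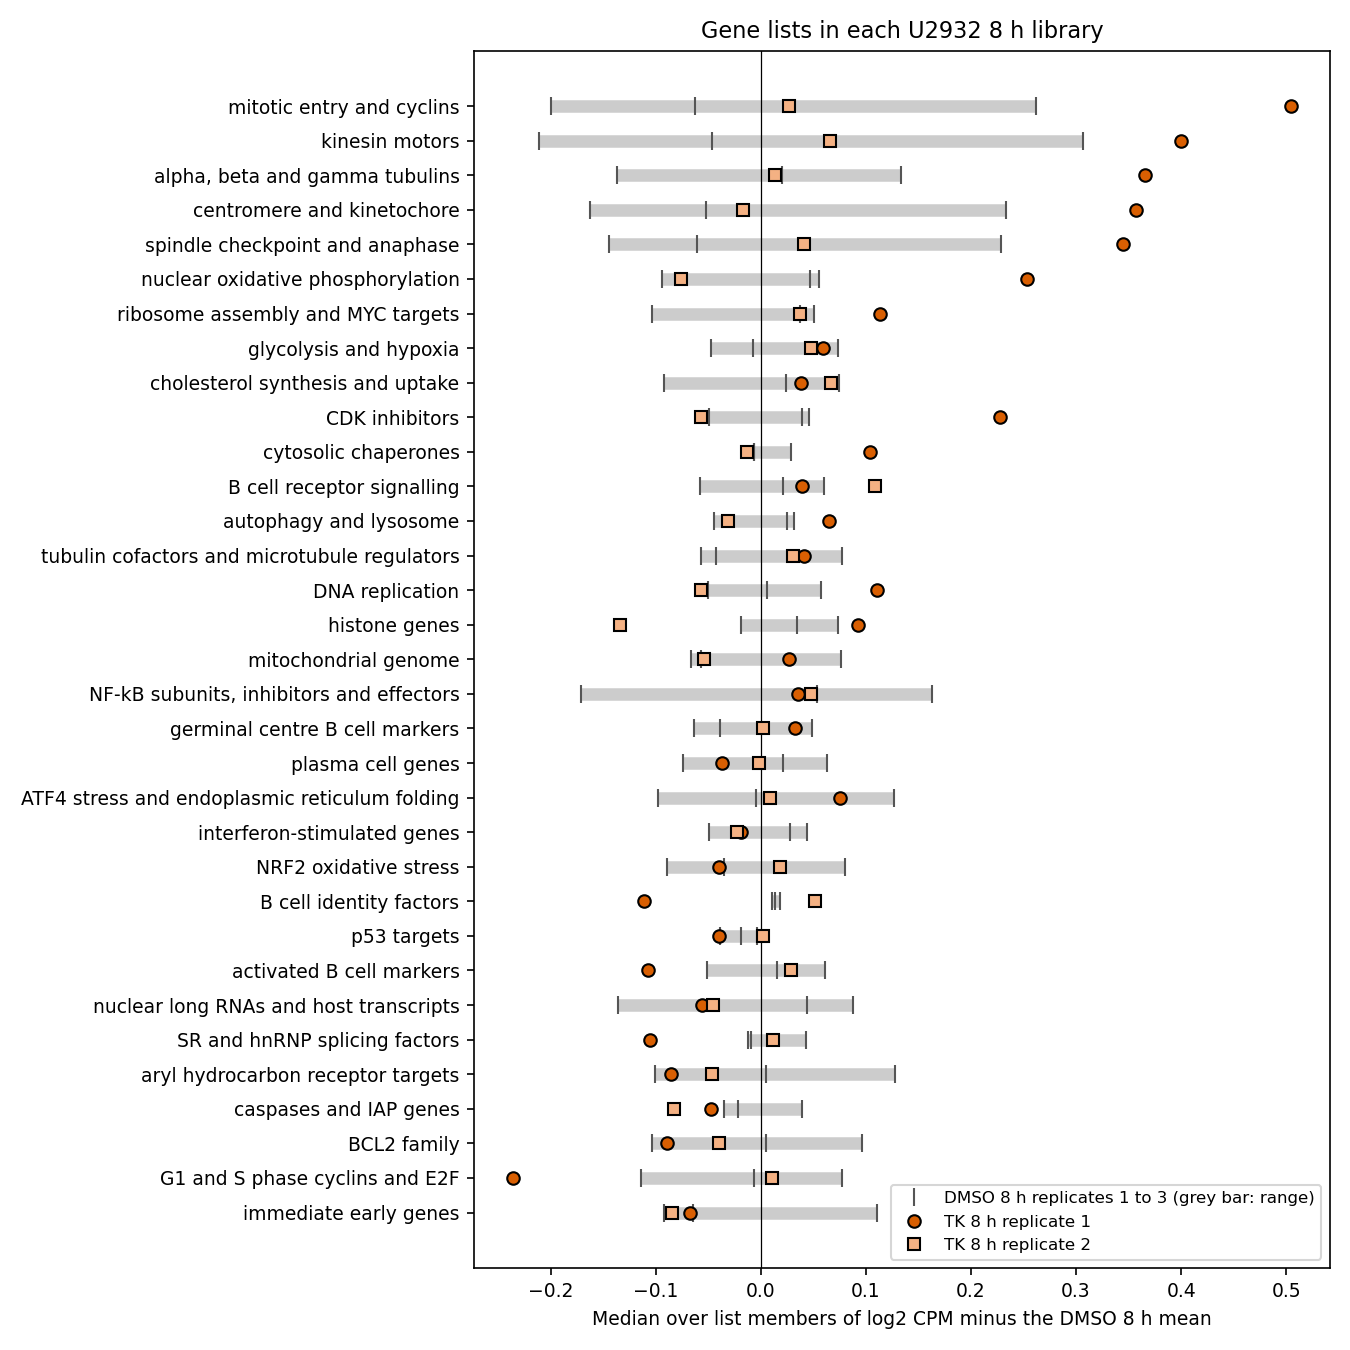
For each gene list (y axis) the x axis gives the median over its members of log2 CPM minus the DMSO 8 h mean, with the 3 DMSO libraries as ticks on a grey bar and TK replicates 1 and 2 as a circle and a square. TK replicate 1 lies outside the DMSO range for many lists. It lies to the right for the mitosis, tubulin, oxidative phosphorylation, CDK inhibitor, cytosolic chaperone and ribosome assembly lists, among others. It lies to the left for G1 and S phase cyclins, B cell identity factors and splicing factors, among others. TK replicate 2 lies within the DMSO range for the mitosis and tubulin lists and outside it for others, such as histone genes and B cell receptor signalling.

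Of genes with at least 5 CPM and both TK libraries on the same side of all DMSO libraries (650 higher, 6.59%, and 569 lower, 5.77%, of 9864), the 12 in each direction with the smallest unadjusted p were listed, and none passes the test. The smallest was for DDX12P, an unprocessed pseudogene of a helicase family at chromosome 12, 9418673 to 9448229, with 21.7, 19.0 and 17.3 CPM in DMSO and 33.4 and 29 CPM in TK. Its difference was 0.69 with an SE of 0.17 and an unadjusted p of 0.000441, and both TK libraries stood well clear of DMSO. The difference was 0.59 without TK replicate 1 and 0.68 with the pseudogene covariate. The pseudogene AC009533.1 on the same chromosome arm had 18.3, 15.3 and 14.1 CPM in DMSO and 25.1 and 21.6 CPM in TK. Counts of such copies are uncertain, because reads can be split between them and their parents, and the same holds for NPIPB4 of a multigene family (6.17, 6.81 and 7.02 CPM against 10.6 and 9.66), the readthrough STAG3L5P-PVRIG2P-PILRB and the ubiquitin gene UBB.

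The others on the higher side were CCNB1, UBE2S, AURKA, AP1G2, HLA-E, MPG and NSF. HLA-E, a class I molecule of the major histocompatibility complex, had 16.0, 13.7 and 17.8 CPM in DMSO and 25.9 and 23.2 CPM in TK, a difference of 0.63 (SE 0.25) that was 0.55 without TK replicate 1. UBB had 377, 386 and 448 CPM in DMSO and 687 and 467 CPM in TK, a difference of 0.52 (SE 0.18) and of 0.30 with the pseudogene covariate. Thus at 8 h HLA-E was higher in both TK libraries by a like amount, whereas UBB was far higher in TK replicate 1 than in TK replicate 2. At 18 h, with 1 DMSO library, the differences were -0.05 (SE 0.31) for HLA-E and 0.59 (SE 0.24) for UBB. In DOHH2 at 8 h they were 0.03 (SE 0.22) and 0.12 (SE 0.17).

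On the lower side were AC012615.1, AC008124.1, RNF139-AS1, PNRC1, AC125257.1, FP565260.7, KTI12, RNF11, TOR1AIP2, LINC00528, PI4K2B and TOB1. PNRC1, a coactivator of nuclear receptors, had 35.9, 37.4 and 40.0 CPM in DMSO and 26.9 and 30.6 CPM in TK, a difference of -0.39 (SE 0.14, unadjusted p of 0.00852), and of -0.305 without TK replicate 1. TOB1, an antiproliferative protein that recruits mRNA deadenylases, had 22.3, 22.7 and 25.7 CPM in DMSO and 19.2 and 19.0 CPM in TK, a difference of -0.30 (SE 0.12). KTI12, linked to modification of transfer RNA, had 24.6, 26.3 and 30.0 CPM in DMSO and 20.75 and 21.7 CPM in TK, a difference of -0.34 (SE 0.13). In TOB1 and KTI12 the TK libraries lay close together and below DMSO, with differences of -0.31 and -0.31 without TK replicate 1. At 18 h, with 1 DMSO library, the differences were 0.36 (SE 0.15) for TOB1 and -0.05 (SE 0.16) for KTI12. In DOHH2 at 8 h they were 0.07 (SE 0.10) and -0.02 (SE 0.11). AC012615.1 had 11.3, 10.1 and 10.8 CPM in DMSO and 7.18 and 5.36 CPM in TK, the largest difference of the 12 at -0.77 (SE 0.21). Its difference was -0.53 (SE 0.195) in DOHH2 at 8 h and -0.55 (SE 0.25) in U2932 at 18 h. In the same order RNF139-AS1 had -0.28 (SE 0.16) and -0.71 (SE 0.21), and AC008124.1 had -0.16 (SE 0.13) and -0.58 (SE 0.17). AC125257.1 (0.11 and 0.22) and FP565260.7 (0.22 and 0.48) were positive in both.

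The genes in which a single TK library was farthest from the DMSO mean, among those with at least 10 CPM and outside the DMSO range, were mostly others. TK replicate 1 was highest over DMSO for PPIAP22, MIF, IGHM, CDC20 and TUBA1A and lowest for MTND2P28, AC005332.5, DAXX, TMED7 and GMFB. TK replicate 2 was highest for DDX12P, IGHM, ALDOC, HLA-DMB and TBC1D27 and lowest for PSMB9, SNHG10, CLIC1, PRRC2A and AC125257.1. PSMB9, a subunit of the immunoproteasome, had 12.3, 9.56 and 10.3 CPM in DMSO and 16.7 and 2.79 CPM in TK, so the TK libraries lay on opposite sides of DMSO. For 2 of these genes a DMSO library set the distance. IGHM, the heavy chain of IgM, had 3429, 3670 and 1060 CPM in DMSO and 4735 and 4440 CPM in TK, and MIF, a cytokine, had 52.4, 4.68 and 55.2 CPM in DMSO and 73.7 and 53.2 CPM in TK. The low libraries were DMSO replicate 3 for IGHM and DMSO replicate 2 for MIF. Of the 5 genes lowest in TK replicate 2, 3 lie in the window of chromosome 6 from 28 to 34 Mb that holds the major histocompatibility complex, where 62 of the 8596 tested genes of at least 10 CPM lie (0.721%). Of the 5 highest in TK replicate 2 and the 5 lowest in TK replicate 1 it holds 1 each, and of the 5 highest in TK replicate 1 it holds 0. The window also holds HLA-E (from 30489467) and KIFC1 (from 33391536), described above, and TUBB (from 30720201) of the tubulin list. What sets the values of genes in this window was not tested.

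The change in U2932 was set against that in DOHH2 at 8 h, which shares no libraries with it. No gene differed between the lines at an adjusted p under 0.05 (0 of 16478, 0%, edgeR's quasi-likelihood test), with 316 at an unadjusted p under 0.05 (1.92%) and 0 called by DESeq2. The mitosis genes had a median difference of 0.12 in DOHH2, with 84 of 111 members positive against 52.4% of all genes. In that line 497 genes had an unadjusted p under 0.05 (3.02%). CCNB1 had 150, 123.5 and 146 CPM in DOHH2 with DMSO and 239, 178 and 199 CPM with TK, without overlap. Its difference was 0.55 (SE 0.15) there, and the lines differed by 0.02 (SE 0.22). CDC20 had a difference of 0.46 (SE 0.20) in DOHH2, UBE2S of 0.47 (SE 0.18) and AURKA of 0.41 (SE 0.16). CDC20 had 190, 135.5 and 179.5 CPM in DOHH2 with DMSO and 292, 205 and 199 CPM with TK. UBE2S had 348, 323 and 384 CPM with DMSO and 627, 452 and 385 CPM with TK. AURKA had 74.4, 51.6 and 57.8 CPM with DMSO and 98.5, 66.8 and 79.5 CPM with TK, so its groups overlapped. For each of these genes the highest library was TK replicate 1, whose pseudogene ratio lies between the sets (log2 ratio of 0.54).

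Of the tubulins, 3 of 17 members were positive in DOHH2, with a median of -0.11. The positive median in U2932 rested on TK replicate 1, since it was -0.0074 without that library, and TUBA1B then had -0.02. TUBA1B had 1206, 852 and 937.5 CPM in DOHH2 with DMSO and 926, 784 and 756 CPM with TK, a difference of -0.28 (SE 0.17). The lines differed by 0.69 (SE 0.26) for this gene, with an unadjusted p of 0.0142 and an adjusted p of 1 by edgeR's quasi-likelihood test. By the same test between the lines 2 of the 17 tubulins had an unadjusted p under 0.05, against 1.92% of all genes. DDX12P had a difference of -0.10 (SE 0.15) in DOHH2 and differed between the lines by 0.79 (SE 0.23, unadjusted p of 0.00222, adjusted p of 1, edgeR). PNRC1 had a difference of 0.18 (SE 0.12) in DOHH2 and differed by -0.57 (SE 0.18).

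Finally the 8 h change was set against the 18 h change of U2932, where the DMSO group is 1 library. CCNB1 had 164 CPM in DMSO at 18 h and 403, 368 and 367 CPM in TK, a difference of 1.21 (SE 0.23, adjusted p of 0.116, edgeR's quasi-likelihood test). CDC20 had 218 CPM in DMSO at 18 h and 541, 475 and 469 CPM in TK, and UBE2S had 356 CPM and 733, 720 and 726 CPM. The TK libraries at 18 h were thus higher than both TK libraries at 8 h for these 3 genes. The differences at 18 h exceeded those at 8 h by 0.64 for CCNB1, 0.51 for CDC20 and 0.47 for UBE2S, none past the adjusted threshold. CDCA8 was about equal, with 0.47 at 18 h and 0.46 at 8 h, and CDK1 had -0.22 and -0.03. Over the mitosis lists the median was 0.14 at 18 h with 77 of 111 positive against 49.3% of all genes, the single DMSO library at 18 h standing at 0.23 and the TK libraries at 0.43 to 0.53 relative to DMSO at 8 h. Of all genes, 1 differed between the times (0.00607%), the light chain gene IGKV3-20 with 0 counts in the DMSO library of 18 h, and 512 had an unadjusted p under 0.05 (3.11%).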

How the data were processed

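The authors deposited whole-number counts per gene for 20 libraries of polyadenylated RNA. Per the submitters' processing notes the reads were aligned with STAR to GRCh38.p10, counted with HTSeq and analysed with edgeR. The sources used here give no versions, annotation release or strand setting. Whether a gene's reads were kept apart from those of its antisense partner is therefore not known. The 5 summary counts were left out of library sizes and tests: in the 8 h libraries of U2932, reads without a unique alignment were 20.7 to 27.6%, those outside genes 7.78 to 10.1% and ambiguous ones 2.37 to 2.68% of all counts. TK replicate 1 had the highest share without a unique alignment and the lowest outside genes.

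All 20 libraries were fitted in R 4.3.3 with edgeR 4.0.16 (TMM scaling, 1 coefficient for each of the 8 groups, robust quasi-likelihood). The filter asked for 0.288 CPM (10 counts in the median library) in 3 or more libraries and left 16478 of the 34160 with any count, with Benjamini-Hochberg adjustment over them and a threshold of 0.05. Symbols came with the deposited counts, and positions came from GENCODE v29, which held 16433 of these genes. Per-library log2 values used a prior count of 2. Replicate libraries differed by far more than sampling noise (chi-square per degree of freedom of 38.7 between the TK libraries). Alternatives used DESeq2 1.42.0, limma 3.58.1 (voom), other filters, scaling, samples and controls, a block and leaving out each library. The fit was also run on simulated counts, drawn separately for each gene around group means. They held no shift of 1 whole library, so they do not bear on the difference between the TK libraries.

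Named genes were those past the threshold, filled up to 12 in each direction by the smallest unadjusted p among genes of at least 5 CPM without overlap of the groups, the 3 (6 for mitosis and tubulin lists) members with the smallest p of each of 38 lists, and the 5 farthest above and below DMSO in each TK library. UBE2C and CDK1, CKS2, ANAPC5, ANAPC4 and MIS12 are outside this rule and were chosen after their values were seen. The members, lists and tests were chosen with earlier results of these data known.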

Additional observations from a re-analysis of the deposited data

Results flagged for a closer look

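IGKV3-20, an immunoglobulin light chain variable gene that U2932 expresses, was the gene whose difference between TK and DMSO changed between the times in U2932, with an adjusted p of 5.002e-06 by edgeR's quasi-likelihood test of 18 h minus 8 h. It had 636, 639 and 588 CPM in DMSO at 8 h and 863 and 569 CPM in TK at 8 h, so the groups overlapped at 8 h. At 18 h it had 680 ± 65.1 CPM (SD, n = 3) in TK and 0 counts in the single DMSO library, at least 11846-fold higher in TK when that library is set to a floor of 3 counts (0.0574 CPM). The other 8 U2932 libraries held 20439 to 29949 counts of it. The result rests on 1 library with no replicate.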

How the results depend on the processing

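No gene was called for TK against DMSO at 8 h under 15 of the 16 alternatives, with 68 (against a 1.5-fold change) to 932 genes (without TK replicate 2) at an unadjusted p under 0.05. Without a filter on low counts 9 of 34160 genes were called (VIM, CDC20, NPIPB3, PPIAP22, LINC02210, IGHM, AC125634.1, MTND2P28 and MIF), as were 18 for the difference between the lines and 16 for that between the times. The tubulin median ranged from -0.0074 (without TK replicate 1) to 0.364 on leaving out single libraries, and the mitosis median from 0.0096 (without TK replicate 1) to 0.38. Of the 62 genes tried, 8 changed sign, in 9 combinations of a gene and a setting, and CDC20 was called once, without the filter (0.68). On leaving out single libraries the differences ranged from -0.0619 to 0.886 for KIFC1, -0.0221 to 0.742 for TUBA1B, -0.0075 to 0.644 for TUBB4B, -0.107 to 0.942 for TUBA1A, -0.0182 to 0.827 for MALAT1, -0.321 to 0.796 for UBE2C and -0.324 to 0.208 for CDK1, with the negative values of all but CDK1 without TK replicate 1. CDK1 was positive without DMSO replicate 1 (0.18) or TK replicate 2. BTK was -0.0137 with DMSO of both times as control. The causes were not tested.

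Replicate numbers were shared by the groups, but only 2 pairs exist. Their deviations from the group means correlated at -0.0633 and 0.296. With 2 TK libraries the TK deviations are mirror images of each other, so these values cannot tell whether the replicates were paired. With the replicate number as a block 0 genes were called (314 at an unadjusted p under 0.05), 0 differed between the lines, 1 between the times, and the medians were 0.22 for mitosis and 0.17 for tubulins. Fits with a single TK library left take its spread from the other groups.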

Other observations

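Genes that DOHH2 expresses and U2932 nearly lacks had a few counts in some U2932 libraries. GYPC, BBOX1 and CPS1 together had 0 counts in each of the 3 DMSO libraries at 8 h, 9 in TK replicate 1 and 3 in TK replicate 2. At 18 h they had 14 counts in the DMSO library and 6, 1 and 31 in TK replicates 1 to 3, so the DMSO library of 18 h held more than either TK library of 8 h. The 8 h levels, at or near the floor of 3 counts, allow no fold change. Genes of U2932 that DOHH2 lacks summed to 262 and 252.5 CPM in the TK libraries and 248 to 277 CPM in DMSO.

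Called only without the filter on low counts, LINC02210 had 22, 34 and 59 counts in DMSO replicates 1 to 3 and 152 and 155 in TK replicates 1 and 2, so it was higher in both. NPIPB3 of the same family as NPIPB4 had 2, 1 and 1 counts in DMSO, 83 in TK replicate 1 and 4 in TK replicate 2, and is a member of a family of near-identical copies.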
